A study of Mus musculus with 4 samples.

Results

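Cytokine receptors of the IL-6 and IL-10 type and the SOCS proteins that feed back on them were followed through 10 genes: the inhibitors Socs1, Socs2, Socs3 and Cish, the receptor chains Il6ra, Il6st, Il10ra and Il10rb, the kinase gene Jak2 and the transcription factor gene Stat3. They were taken by gene name, and all 10 were found among the 24473 genes of the FPKM table. FPKM are fragments scaled to the length of the gene model and to the depth of the library. The knockdown group comprised 2 libraries of BV-2 (a mouse microglial line made immortal) with SIX2 knocked down, titled sh s1 and sh s2. The control group comprised 2 libraries of the same line with the genotype label WT, titled sh c1 and sh c2, so both titles carry the sh prefix. SIX2 is a homeobox transcription factor. Every library came from cells given lipopolysaccharide (LPS), the endotoxin of Gram-negative bacteria that TLR4 senses, at 100 ng/mL for 24 h, and there were no libraries without LPS among those analysed here. The labels do not say whether the 2 libraries of a group were separate cultures or whether a group is 1 clone, so the p-values cover only how these libraries scatter, and that scatter may be technical.

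In this pathway a cytokine brings receptor chains together, the kinases bound to them (among them JAK2) phosphorylate the receptor, and STAT3 docks there, is phosphorylated and moves to the nucleus. IL-6 binds its own receptor chain (Il6ra) and signals through gp130, the product of Il6st, while IL-10 binds Il10ra and signals together with Il10rb. STAT3 induces Socs3, whose protein binds gp130 and JAK kinases and ends the signal, so Socs3 mRNA is a widely used readout of recent STAT3 activity in macrophages and microglia. SOCS1 restrains interferon signalling, and CISH and SOCS2 restrain receptors that act through STAT5.

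The sequences before the starts of Socs3 and Socs1 and at the start of Cish are shown because they hold the letters that STAT or interferon regulatory factors recognise in genes of this family. They come from RefSeq on GRCm38.p6, whose promoter table has windows of 250 bases before to 50 bases after a gene's start and held 7 of the 10 genes. Capitals mark TTCNNNGAA, the palindrome that STAT dimers bind, which reads the same on both strands, and the paired GAAA core of interferon regulatory factor sites (GAAA, any 2 bases, GAAA), searched on both strands.
Socs3, chr11:117969367-117969616, minus strand: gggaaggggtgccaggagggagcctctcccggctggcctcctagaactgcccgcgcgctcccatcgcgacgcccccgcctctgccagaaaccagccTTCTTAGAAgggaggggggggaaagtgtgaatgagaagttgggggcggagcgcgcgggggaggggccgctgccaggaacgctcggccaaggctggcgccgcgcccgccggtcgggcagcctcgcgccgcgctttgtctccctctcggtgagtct
Socs1, chr16:10785537-10785786, minus strand: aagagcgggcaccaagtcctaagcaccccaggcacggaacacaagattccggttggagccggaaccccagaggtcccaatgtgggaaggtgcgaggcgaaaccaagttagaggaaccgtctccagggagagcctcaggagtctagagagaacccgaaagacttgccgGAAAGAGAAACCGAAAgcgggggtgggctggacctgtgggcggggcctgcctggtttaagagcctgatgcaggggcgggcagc
Cish, chr9:107296659-107296678, plus strand: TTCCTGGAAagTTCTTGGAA

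The Socs3 window had 1 TTCNNNGAA match, which begins 154 bases before the RefSeq start. That window, and with it the match, lies inside the longer GENCODE gene model of Socs3. The Cish window had 2, which begin at bases 1 and 12 after the start and lie inside the longer GENCODE gene model of Cish. The Socs1 window had no TTCNNNGAA match and held 2 overlapping paired GAAA cores, which begin 83 and 77 bases before the start. Of all 32851 promoter windows of 300 bases, 8.3% held TTCNNNGAA and 3.44% held a paired GAAA core on either strand. The windows of Stat3, Jak2, Il6ra and Il6st held neither set of letters. A match describes the letters and was not tested as a binding site.

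The libraries held 74712717 and 64265336 counts in knockdown and 75672836 and 60956299 in control. Fragment numbers below assume 4 counts per sequenced fragment, because 45.5% of the values from 1 to 20 counts were multiples of 4. No source used here states that ratio, and the intervals on fragments rest on it. Six2 had a count of 0 in all 4 libraries, which allows up to 12 counts (3 fragments), or 0.161 and 0.187 CPM in knockdown and 0.159 and 0.197 CPM in control libraries, so the knockdown could not be checked on its own mRNA. CPM are counts scaled to a library of fixed size, and the CPM of genes and markers below also carry TMM factors for composition. All 11 microglia and macrophage markers had more than 12 counts in every library, with summed levels of 2090 to 2150 CPM in knockdown and 2310 to 2370 CPM in control libraries. The lowest of the 11, Cx3cr1, had only 0.257 and 0.853 CPM in knockdown and 0.393 and 0.437 CPM in control libraries. Traces of brain cell markers were also present, and more so in control. The 5 neuronal markers summed to 0 to 3.19 CPM in knockdown and 5.63 to 6.14 CPM in control libraries, the 4 oligodendrocyte markers to 0.316 to 8.07 and 13.9 to 14.8 CPM, and the 5 astrocyte markers to 0.711 to 2.34 and 4.08 to 5.13 CPM. Knockdown replicate 2 was the lowest library for all 3 lists and had 0 counts for each of the 5 neuronal markers. Markers of T and B cells (0 to 0.162 CPM in knockdown, 0 to 0.262 in control) and of fibroblasts (0.0632 to 0.338 and 0.551 to 0.582 CPM) were near 0.

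Of the 10 genes, Socs3 alone passed the test between knockdown and control, and it fell. The other SOCS genes, Il10ra and Jak2 had lower values in both knockdown libraries than in either control library, and Il6ra had higher ones. Il6st and Stat3 had nearly equal levels, and the groups overlapped for Il10rb. All 10 genes were abundant enough to be tested. By edgeR's quasi-likelihood test, with Benjamini-Hochberg adjustment over all 15733 genes tested, 1 of the 10 was lower at an adjusted p under 0.05, 0 were higher and 9 did not pass. Over all genes, 0.953% passed in either direction, 0.547% lower and 0.407% higher in knockdown. At an unadjusted p under 0.05, 4 of the 10 were lower (Socs1, Socs2, Socs3 and Il10ra) and 1 was higher (Il6ra), against 6.7% of all genes lower and 7.52% higher. Knockdown and control libraries were fully apart for 9 of the 10 genes on the CPM scale (6 lower and 3 higher in knockdown), against 47.6% of all genes, and for 7 of the 10 on the FPKM scale, against 47.4%. The scales differ over Stat3 and Il6st. The median log2 fold change of the 10 genes was -0.43, that of all genes -0.01. In bulk RNA, fewer cells that express a gene and less of its RNA per cell cannot be told apart.

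On the FPKM scale, which allows levels of different genes to be compared, Socs3 was the most abundant of the 10 in both groups. In knockdown libraries the order of mean FPKM was Socs3 (13.6 ± 0.487), Il10rb (11.9 ± 4.88), Stat3 (8.74 ± 0.645), Il6ra (5.9 ± 0.52), Jak2 (3.78 ± 0.543), Il6st (3.43 ± 0.132) and Il10ra (1.99 ± 0.0861). Socs1, Cish and Socs2 followed at 0.196 ± 0.0328, 0.19 ± 0.111 and 0.186 ± 0.0401 FPKM (SD, n = 2 throughout). In control libraries the order was Socs3 (20.5 ± 0.114), Il10rb (13.4 ± 5.81), Stat3 (8.39 ± 0.0214), Il6ra (4.89 ± 0.225), Jak2 (4.79 ± 0.202), Il10ra (3.51 ± 0.578) and Il6st (3.4 ± 0.0277). Socs1, Socs2 and Cish came last with 0.525 ± 0.165, 0.408 ± 0.00223 and 0.323 ± 0.0491 FPKM. Some neighbours in these orders overlapped between libraries and so have no firm rank. In knockdown these were Socs3 with Il10rb, Il10rb with Stat3, Jak2 with Il6st, and Socs1, Cish and Socs2 among themselves. In control they were Il6ra with Jak2, Il10ra with Il6st, and Socs1 with Socs2.

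**Figure D1:**
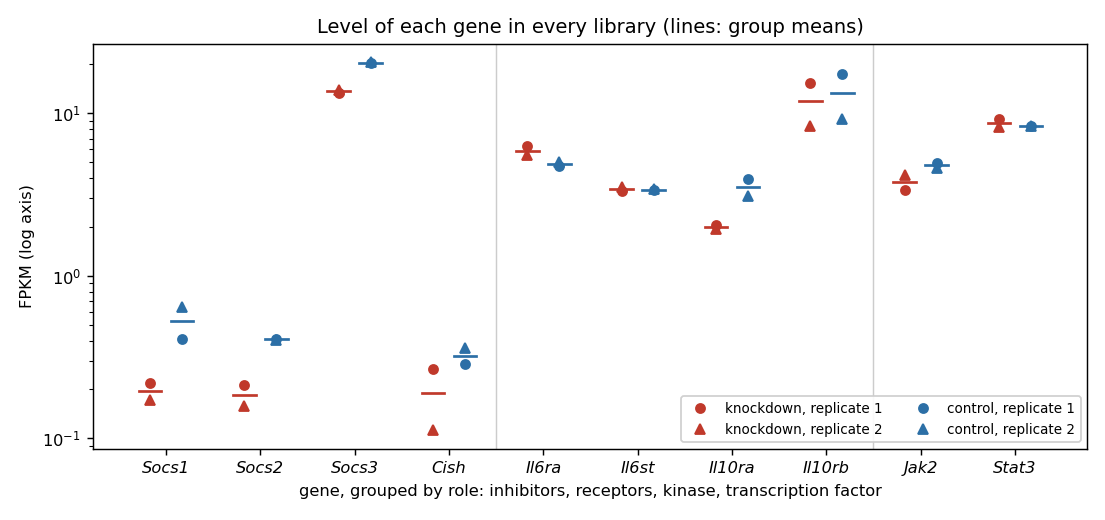
FPKM (log axis) of each of the 10 genes in every library, knockdown left of control, with circles for replicate 1, triangles for replicate 2 and lines for group means. Socs3 had 13.3 and 14 FPKM in knockdown and 20.4 and 20.6 in control libraries, and Il10rb splits by replicate number in both groups.

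Socs3 (ENSMUSG00000053113, chromosome 11, 117966079 to 117970047, minus strand, GRCm38) is the feedback inhibitor of gp130 signalling. It had 3198 and 2889 counts in knockdown libraries and 4985 and 4030 in control libraries. Scaled, these were 43.2 and 45.6 CPM in knockdown and 65.4 and 65.2 CPM in control. Both control libraries lay above both knockdown libraries, and the libraries of each group were close together. The log2 fold change was -0.56 ± 0.08 (SE, 95% interval -0.76 to -0.35), a level 0.68 times that of control, and it passed with an adjusted p of 0.0451 by edgeR with Benjamini-Hochberg adjustment. The fold kept its size but not its call when 1 library was left out (log2 fold change -0.59 to -0.52, adjusted p = 0.131 to 0.219 by edgeR), and the call was also lost without edgeR's robust option (adjusted p = 0.0974), with limma-voom (0.0708) and with limma-trend on FPKM (0.148). It was kept with DESeq2 (adjusted p = 3.74e-06). Of the 11 microglia and macrophage markers, 3 were lower by the same test: Aif1, Csf1r and Adgre1, with log2 fold changes of -1.04 ± 0.16, -0.48 ± 0.07 and -0.63 ± 0.07 (SE). The other 8 did not pass, Trem2 among them with 0.48 ± 0.1 in the opposite direction (adjusted p = 0.0969 by edgeR), and the median of the list was -0.04. Their part in the Socs3 result was not tested.

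Likeness to Socs3 was taken as Euclidean distance in centred log2 CPM over the 4 libraries. The 9412 genes compared averaged 5 CPM or more, and names of the Gm number, Rik or ENSMUSG type were left out. The 3 closest of these genes were Ccpg1, Rasd2 and Pilra (distances of 0.012, 0.014 and 0.017). None of them passed (adjusted p = 0.244, 0.234 and 0.144 by edgeR, Benjamini-Hochberg). Over 4 libraries such closeness describes these samples only. Ccpg1 had 5.58 and 5.91 CPM in knockdown and 8.53 and 8.51 CPM in control libraries, and Pilra, an inhibitory receptor of myeloid cells, 10.1 and 10.6 against 15.2 and 15.4 CPM.

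Socs1 (ENSMUSG00000038037, chromosome 16, 10782240 to 10785536, minus strand), which blocks JAK kinases in interferon signalling, was the inhibitor with the largest fitted fold among the 4 and one of the lowest in level. It had 54 and 36 counts in knockdown libraries and 101 and 127 in control libraries, or 0.729 and 0.569 against 1.32 and 2.05 CPM. The groups did not overlap, though the control libraries differed from each other by more than the knockdown libraries did. Its log2 fold change of -1.38 ± 0.49 (SE, 95% interval -2.54 to -0.21) did not pass (adjusted p = 0.277 by edgeR, Benjamini-Hochberg). At the assumed 4 counts per fragment, the 36 counts of knockdown replicate 2 are 9 fragments (exact 95% Poisson interval 4.12 to 17.1) and the 101 of control replicate 1 are 25.2 (16.4 to 37.2). These intervals cover counting error only.

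Socs2 (ENSMUSG00000020027, chromosome 10, 95385362 to 95417180, minus strand), which restrains growth hormone receptor signalling, had 172 and 109 counts in knockdown libraries and 331 and 263 in control libraries. That was 2.32 and 1.72 CPM in knockdown and 4.34 and 4.25 CPM in control. The groups did not overlap, and its log2 fold change was -1.09 ± 0.3 (SE, 95% interval -1.8 to -0.37), 0.471 times the control level. It did not pass with edgeR (adjusted p = 0.186, Benjamini-Hochberg), nor with DESeq2 (adjusted p = 0.0526).

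Cish (ENSMUSG00000032578, chromosome 9, 107296026 to 107302784, plus strand), a STAT5 target whose product binds activated cytokine receptors, had 144 and 52 counts in knockdown libraries and 157 and 156 in control libraries. Its levels were 1.94 and 0.821 CPM in knockdown and 2.06 and 2.52 CPM in control. Knockdown replicate 1 lay just under the controls and replicate 2 far under them, so the difference rests on 1 library. The log2 fold change of -0.72 ± 0.49 (SE, 95% interval -1.89 to 0.44) did not pass (adjusted p = 0.582 by edgeR, Benjamini-Hochberg), and it was -0.23 without knockdown replicate 2 and -1.48 without knockdown replicate 1. Knockdown replicate 2 was also the library with the lowest brain cell marker levels. Without knockdown replicate 2 the value was -1.2 for Socs1 and -0.88 for Socs2. Socs1, Socs2 and Cish lay under 5 CPM, in the range of those markers, and the part of the markers in these differences was not tested.

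**Figure D2:**
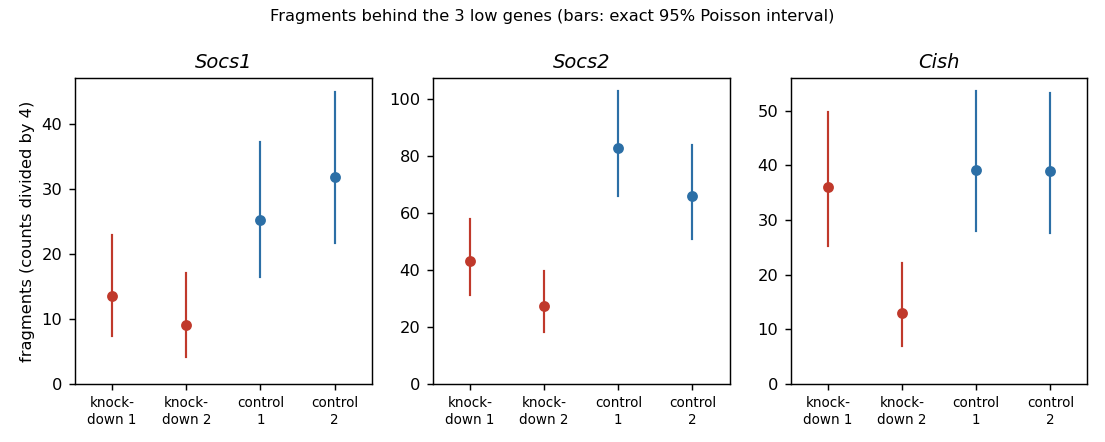
Fragments (counts divided by 4, an assumed ratio) of Socs1, Socs2 and Cish in each library, knockdown left of control, with exact 95% Poisson intervals that cover counting error only. Knockdown replicate 2 had the fewest fragments for each gene, 9 for Socs1, 27.2 for Socs2 and 13 for Cish.

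None of the 4 receptor genes passed with edgeR. Both ligand-binding chains had groups that did not overlap, with Il10ra at lower and Il6ra at higher values in knockdown. Of the signalling chains, Il6st had a fitted value near 0 (log2 fold change 0.04). The interval of Il10rb (-2.04 to 1.75) was too wide to show or bound a difference. Il10ra (ENSMUSG00000032089, chromosome 9, 45253837 to 45269149, minus strand), the chain that binds IL-10, had 599 and 484 counts in knockdown libraries and 1157 and 736 in control libraries. The levels were 8.09 and 7.64 CPM in knockdown and 15.2 and 11.9 CPM in control. The knockdown libraries agree closely and lie under both controls, which differ from each other. Its log2 fold change was -0.78 ± 0.18 (SE, 95% interval -1.21 to -0.36), and it did not pass with edgeR (adjusted p = 0.123, Benjamini-Hochberg) but did with DESeq2 (adjusted p = 0.0152).

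Il10rb (ENSMUSG00000022969, chromosome 16, 91406164 to 91425834, plus strand), the second chain, which also serves the receptors of IL-22 and type III interferon, differed between replicates rather than between groups. It had 4853 and 2289 counts in knockdown libraries and 5620 and 2394 in control libraries, or 65.5 and 36.2 against 73.7 and 38.7 CPM. Replicate 1 was 1.81 times replicate 2 in knockdown and 1.9 times in control. Among the 7298 genes averaging 20 CPM or more, 20 had replicate 1 at least 1.5 times higher than replicate 2 in both groups (0.274%) and 18 the reverse. The groups overlapped, and the log2 fold change of -0.14 ± 0.55 had a 95% interval of -2.04 to 1.75, too wide to show or bound a difference. Leaving out control replicate 1 gave 0.39 and leaving out knockdown replicate 2 gave 0.22. Il10rb overlaps the gene model Gm21970 on the same strand by 13288 bases of gene span, and that model had 0 counts in all 4 libraries.

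Il6ra (ENSMUSG00000027947, chromosome 3, 89864059 to 89913196, minus strand), the chain that binds IL-6, had 4513 and 3420 counts in knockdown libraries and 3452 and 2955 in control libraries. Its levels were 60.9 and 54 CPM in knockdown and 45.3 and 47.8 CPM in control. Both knockdown libraries lay above both controls, and the log2 fold change of 0.31 ± 0.1 (SE, 95% interval 0.07 to 0.54) did not pass (adjusted p = 0.24 by edgeR, Benjamini-Hochberg). An antisense gene model, Gm42809, overlaps its start by 281 bases and had 31 and 5 counts in knockdown and 40 and 34 in control libraries.

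Il6st (ENSMUSG00000021756, chromosome 13, 112464070 to 112510086, plus strand), which encodes gp130, had 3079 and 2792 counts in knockdown libraries and 3167 and 2570 in control libraries. These were 41.6 and 44.1 CPM in knockdown and 41.5 and 41.6 CPM in control. One knockdown library was level with the controls. The log2 fold change of 0.04 ± 0.09 (SE) had a 95% interval of -0.18 to 0.27 and did not pass (adjusted p = 0.898 by edgeR, Benjamini-Hochberg).

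Jak2 (ENSMUSG00000024789, chromosome 19, 29251828 to 29313080, plus strand), a kinase bound to gp130 and to the receptors of growth hormone and GM-CSF, had 1424 and 1499 counts in knockdown libraries and 2092 and 1581 in control libraries. Its levels were 19.2 and 23.7 CPM in knockdown and 27.4 and 25.6 CPM in control. The groups did not overlap, but knockdown replicate 2 lay near control replicate 2. The log2 fold change of -0.31 ± 0.14 (SE, 95% interval -0.64 to 0.03) did not pass (adjusted p = 0.396 by edgeR, Benjamini-Hochberg).

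Stat3 (ENSMUSG00000004040, chromosome 11, 100885098 to 100939540, minus strand), the transcription factor that both receptors activate, had 7300 and 5648 counts in knockdown libraries and 6736 and 5426 in control libraries. Scaled, these were 98.6 and 89.2 CPM in knockdown and 88.3 and 87.7 CPM in control. Knockdown replicate 1 was the highest and the other 3 libraries were close together, and on the FPKM scale the groups overlapped (9.2 and 8.29 in knockdown, 8.38 and 8.41 in control). The log2 fold change of 0.09 ± 0.08 (SE, 95% interval -0.11 to 0.29) did not pass (adjusted p = 0.696 by edgeR, Benjamini-Hochberg). Stat3 and Stat5a lie tail to tail and share 72 bases on opposite strands. These are mRNA levels, and the phosphorylation that activates STAT3 was not measured.

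**Figure D3:**
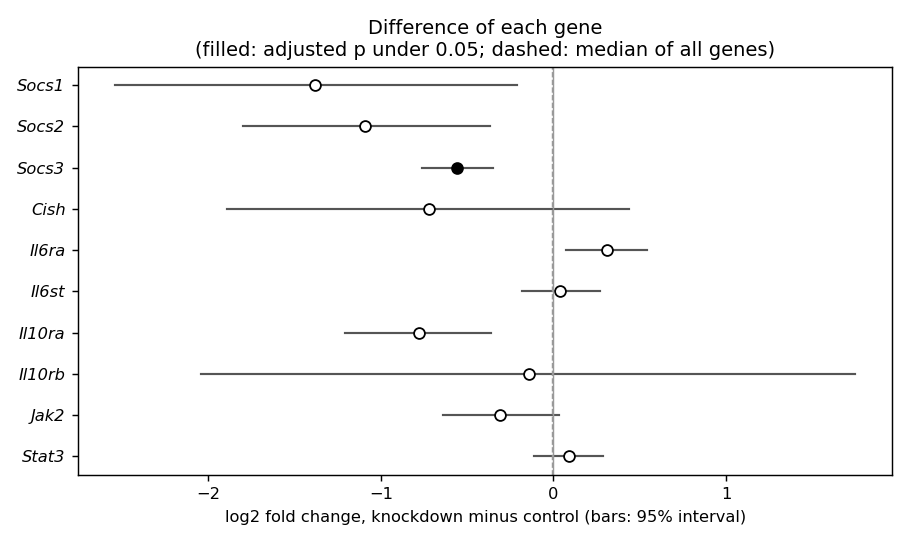
Log2 fold change (knockdown minus control) of each gene with its 95% interval from the edgeR fit, grouped by role. Socs3 (-0.56) is the filled point that passed, the intervals of Socs1, Socs2, Il10ra and Il6ra also exclude 0, and that of Il10rb spans -2.04 to 1.75.

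Of 13 listed IL-6 and IL-10 family ligand genes, 6 were abundant enough to be tested, and by edgeR 0 passed, with 0 at an unadjusted p under 0.05. DESeq2 and limma called none of them either. Ebi3, a subunit of IL-27 and IL-35, was the most abundant at 26.8 ± 2.61 CPM in knockdown and 29.3 ± 3.31 CPM in control (SD, n = 2 each). Osm, the gp130 cytokine oncostatin M, had 5.72 ± 0.0457 and 4.55 ± 0.598 CPM, and Il6 had 3.72 ± 0.947 and 4.09 ± 0.042 CPM. Il10 itself, which is outside the naming rule and was added after its values were seen, had 91 and 38 counts in knockdown and 106 and 80 in control libraries. Among the 15 genes of the gp130 and IL-10 receptor classes, 10 were tested and 0 passed by edgeR. At an unadjusted p under 0.05, 1 was higher (Il6ra) and 1 lower (Il10ra), against 7.52% and 6.7% of all genes. DESeq2 called 1 (Il10ra), against 801 of all 15733 genes, and limma none. The gp130 partner chains Osmr and Lifr, also named after their values were seen, had at most 12 counts in any library: Osmr had 0 counts in both knockdown libraries and 4 and 0 in control, and Lifr 0 in both knockdown libraries and 10 and 12 in control. Ifngr2, an interferon gamma receptor chain, had 104 ± 2.48 CPM in knockdown and 110 ± 6.15 CPM in control, and Ifnar1, a type I interferon receptor chain, 61.7 ± 0.00781 and 69.2 ± 15.5 CPM.

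Of 11 JAK and STAT genes 10 were tested and 0 passed by edgeR. At an unadjusted p under 0.05 there were 2 lower and 0 higher, against 6.7% and 7.52% of all genes. DESeq2 called 2, against 801 of all 15733 genes, and limma 0. The 2 were Tyk2 and Stat2, which act in interferon signalling and were named after their values were seen. Tyk2 had a log2 fold change of -0.43 ± 0.1 and Stat2 of -0.8 ± 0.2 (SE, adjusted p = 0.123 and 0.162 by edgeR, Benjamini-Hochberg). Jak1, the kinase shared by both receptor types, had 179 ± 3.9 CPM in knockdown and 173 ± 12.3 CPM in control, and Stat6, which transmits IL-4 signals, 135 ± 0.898 and 127 ± 1.34 CPM. The median log2 fold change over these 10 genes was -0.12.

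The SOCS family and the ubiquitin ligase that works with it through the SOCS box held 12 tested genes, of which 1 (Socs3) fell, 0 rose and 11 did not pass. The single call was lost with limma-voom, without the robust option, with limma-trend on FPKM and with any 1 library left out. At an unadjusted p under 0.05, 4 were lower (Socs1, Socs2, Socs3 and Rnf7), against 6.7% of all genes. Higher at that p were 2 (Socs5 and the cullin gene Cul5, both named after their values were seen), against 7.52% of all genes. The list's median was -0.15. Its adaptor genes Elob and Eloc had 159 ± 8.39 and 123 ± 0.876 CPM in knockdown against 143 ± 12.8 and 124 ± 15.6 CPM in control. Rnf7, the RING subunit, had 95.5 ± 1.87 CPM in knockdown and 109 ± 3.5 CPM in control. Socs4, Socs5, Socs6 and Socs7, named after their values were seen, had log2 fold changes of -0.1, 0.28, -0.73 and 0.1, and none passed. Other inhibitors of the pathway, chiefly phosphatases and PIAS proteins, were all 14 tested and 0 passed by edgeR. Of these, 1 (Ptpn1) was lower at an unadjusted p under 0.05, against 6.7% of all genes. DESeq2 and limma called none. Ptpn6, the phosphatase SHP-1, had 361 ± 15.9 CPM in knockdown and 402 ± 10.3 CPM in control, Ptpn1 154 ± 1.25 and 177 ± 4.59 CPM, and Ptprc (CD45) 148 ± 2.89 and 143 ± 4.13 CPM.

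Among 24 genes listed as STAT3 and IL-10 response genes, 22 were tested, 1 fell (Socs3), 0 rose and 21 did not pass, with a median of -0.12. At an unadjusted p under 0.05, 4 were lower (Socs3, Tnfrsf1b, Pim1 and Myc) and 0 higher, against 6.7% and 7.52% of all genes. With groups that did not overlap, 11 were lower and 1 higher, against 23.8% of all genes lower and 23.8% higher. This split was less uneven in the other lists. Lower and higher genes numbered 7 and 4 in the SOCS list, 1 and 1 among ligands and 3 and 3 among receptors. They numbered 5 and 3 among JAK and STAT genes, 3 and 5 among other inhibitors and 5 and 4 in the STAT5 list. Pim1, a kinase gene, and Myc, a growth regulator, were named after their values were seen. Pim1 had 37.8 ± 4.99 CPM in knockdown and 49.2 ± 1.61 CPM in control, and Myc 0.849 ± 0.308 and 2.16 ± 0.442 CPM (SD, n = 2 each). Tnfrsf1b, a TNF receptor, had 182 ± 5.07 CPM in knockdown and 237 ± 1.74 CPM in control, a log2 fold change of -0.38 ± 0.07 (SE) that did not pass (adjusted p = 0.0742 by edgeR, Benjamini-Hochberg). DESeq2 called 2 genes of this list, Socs3 and Tnfrsf1b, against 801 of all 15733 genes, and limma none. Mcl1, a survival factor, had 332 ± 8.82 CPM in knockdown and 370 ± 22.5 CPM in control, and Cebpb, a transcription factor of acute responses, 171 ± 34.3 and 216 ± 11.1 CPM. Bcl3 and Sbno2, mediators of the IL-10 response named after their values were seen, had log2 fold changes of -0.2 and 0.07. In the STAT5 and GM-CSF list, which holds Cish and Socs2, 12 of 13 genes were tested and 0 passed by edgeR. Unadjusted, 2 were higher and 3 lower at p under 0.05, against 7.52% and 6.7% of all genes. DESeq2 and limma called none. The GM-CSF receptor chain gene Csf2rb had 74.1 ± 12.5 CPM in knockdown and 55.2 ± 4.28 CPM in control, while Id2 had 92.4 ± 5.88 and 107 ± 0.115 CPM and Bcl2l1, an anti-apoptotic gene, 71.2 ± 6.16 and 60.4 ± 2.4 CPM.

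**Figure D4:**
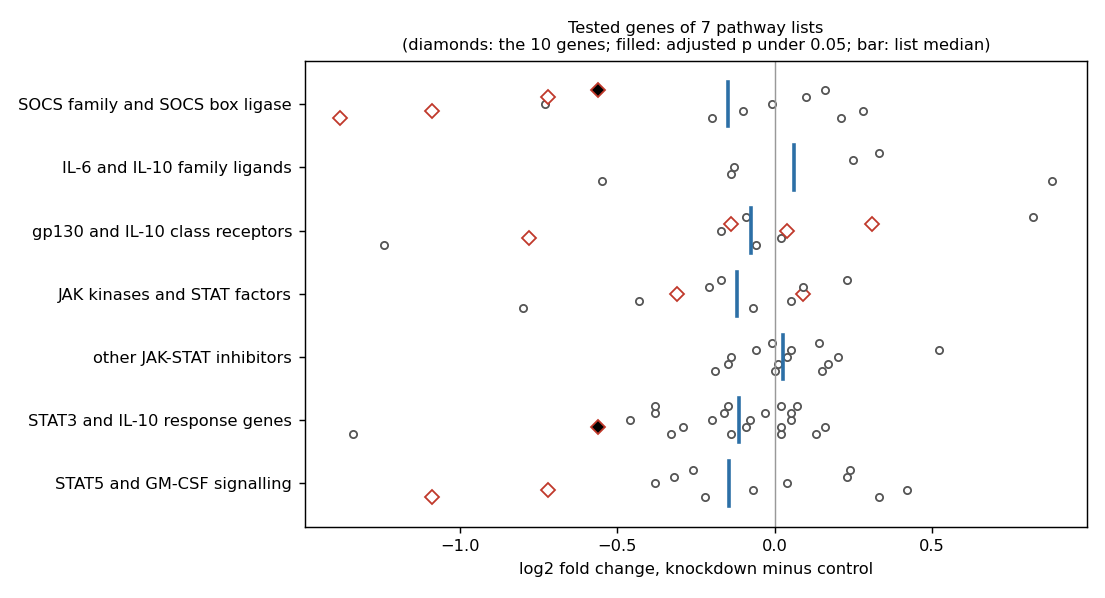
Log2 fold change (knockdown minus control) of every tested gene of the 7 pathway lists, with diamonds for the 10 genes named at the outset and a bar at each list's median. Socs3 is the filled diamond in both lists that hold it, and list medians lie between -0.15 and 0.06.

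**Figure D5:**
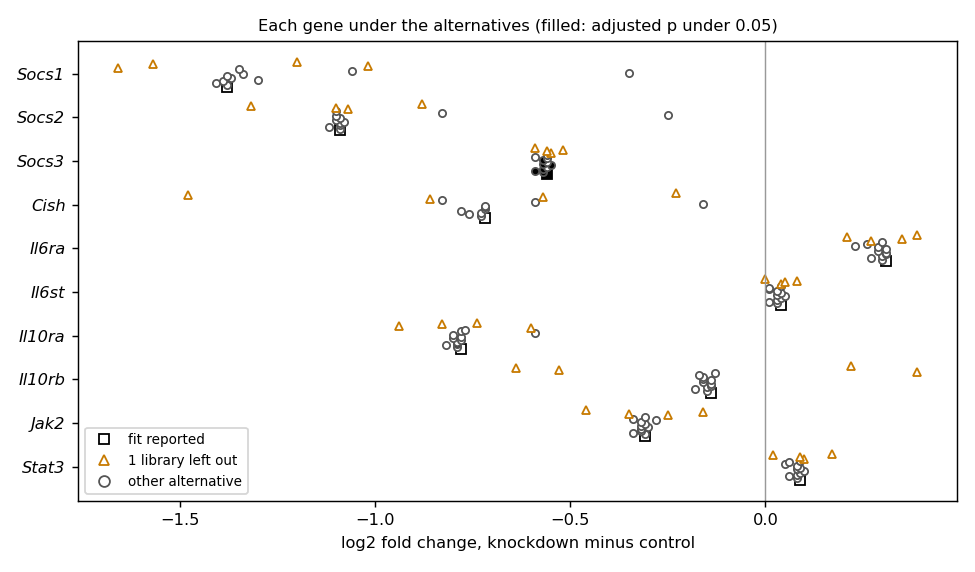
Log2 fold change (knockdown minus control) of each gene in the reported fit (square), with 1 library left out (triangles) and under the other alternatives (circles). The Socs3 values stay between -0.59 and -0.52 while the call comes and goes, and those of Il10rb lie on both sides of 0.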

How the data were processed

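Gene expression was measured by RNA sequencing in 2 knockdown and 2 control libraries, grouped by the genotype label. Oligo-dT selection of mRNA and strand marking with dUTP are described, per the labels' protocols. The deposited values were estimated counts per gene, whole numbers that were not normalised, for 55401 genes. Of values from 1 to 20, 45.5% were multiples of 4, so 4 counts per fragment were assumed. The authors also deposited FPKM values for 24473 genes, with that unit given per the file headers. Bowtie 0.12.2 and build mm8 are the tool and build listed, per the submitters' processing notes. The counting program and use of strand are not given in the sources used here. Coordinates of 21093 of 24422 genes (86.4%), all 10 described genes included, were identical to GENCODE M21 on GRCm38, the build used here. Another 12 columns match no labelled sample and were not used.

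The counts were tested with edgeR 4.0.16 under R 4.3.3 (TMM scaling, genes kept by filterByExpr, quasi-likelihood F test with the robust option, two-sided, adjusted p under 0.05 over all genes). SE were derived from that test, as the absolute log2 fold change over the square root of its F value. The 95% intervals use this SE and the t distribution. Alternatives were DESeq2 1.42.0, limma 3.58.1 (voom on counts, trend on log2 FPKM with 1 or 0.1 added), other scalings and filters, counts divided by 4, a replicate block and leaving out each library. The edgeR fit was also run on simulated counts, with changes set only in genes of 5 CPM or more, and its outcome is not given here. The genes, the pathway lists and the tests were chosen with earlier results of these data known. Named from each list were genes that passed (up to 5) and the 3 with the highest CPM; others are marked in the text. No set test was made.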

Additional observations from a re-analysis of the deposited data

How the results depend on the processing

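Of 148 recomputed values of the 10 genes, 136 kept direction and side of the threshold, 9 lost the call (all Socs3), 1 gained it (Il10ra with DESeq2) and 2 changed sign (Il10rb, -0.64 to 0.39 with 1 library left out). Socs1 and Cish were not tested with at least 1 CPM in all 4 libraries. The number of the 10 genes called was 1, against 2 with DESeq2 and 0 with limma-voom, without the robust option, with limma-trend on log2(FPKM + 1) or log2(FPKM + 0.1), at an adjusted p under 0.01, and with any library left out (range 0 to 0). At an unadjusted p under 0.05, 4 to 6 of those of the 10 that were tested passed in each fit of all 4 libraries. Over all genes, 2237 of 15733 passed at that p in the reported fit (14.2%). With at least 1 CPM in all 4 libraries it was 1892 of 11354, and without a filter on low counts 2487 of 22759. Over all genes 150 were called, against 801 with DESeq2, 65 with limma-voom, 297 when low counts were not filtered, 7 without the robust option, 3 with limma-trend on either FPKM scale, 7 at an adjusted p under 0.01 and 41 to 112 with 1 library left out. With the replicate number as a replicate block in edgeR, 0 genes and 0 of the 10 were called (2055 and 5 at an unadjusted p under 0.05), and Socs3 had an adjusted p of 0.132. The labels do not say that a number marks a shared batch. Over all 15733 genes, same-numbered libraries hardly deviated together (r = 0.049), while Il10rb split by number in both groups (1.81 and 1.9 times). Whether a number marks a batch was not tested. Of 105 recomputed list counts, 81 were within 1.5 times, 18 were lower and 6 higher. The cause of these differences was not tested. Socs1 and Cish rest on 36 to 157 counts a library, and what changes of that level this depth can show was not tested.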
